A study of Mus musculus with 21 samples.

Results

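The Reg family of secreted C-type lectins was followed across 21 single-color arrays of colon RNA from germ-free (GF) mice. Its members are Reg1, Reg2, Reg3a, Reg3b, Reg3d, Reg3g and Reg4, which are defined by their gene names. All 7 genes, of 28406 named on the arrays, had a probe at each day. Each is given by its brightest probe, and Reg3d alone had a second probe, at day 0. The study asked what Card9, an adaptor protein of myeloid cells that relays signals of fungal and bacterial receptors, does for colitis in mice without a microbiota. All mice were male and on the C57BL/6J background, and the RNA came from whole colon tissue, so that fewer cells of a type and less RNA per cell cannot be told apart. At day 0 of a course of dextran sulfate sodium (DSS), 7 arrays were labelled GF Card9-/- and 6 were labelled GF WT. At day 7 of 2% DSS in the drinking water, which injures the colonic epithelium, 4 arrays were labelled GF Card9-/- and 4 GF WT. The labels name DSS as the treatment at both days, and do not say whether the day 0 mice had received any. Card9-/- mice lack the gene in all cells, the age of the mice on the arrays was not given in the sources used here, and 1 array holds 1 sample. Days 0 and 7 were run on different array designs, so levels were compared only within a day.

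Reg proteins are small lectins that epithelial cells release into the lumen. Reg3b and Reg3g bind bacterial cell walls, kill or hold off bacteria at the mucosal surface and are classical targets of IL-22, which acts on the epithelium through the transcription factor STAT3. Reg1 and Reg2 were first known from the pancreas, where acinar and regenerating islet cells make them. Reg3a and Reg3d are further members of the Reg3 group, which are best known from the pancreas and the small intestine. Reg4 is a more distant member that marks goblet-like and deep crypt secretory cells of the colon. In conventional mice the microbiota raises Reg3b and Reg3g, so germ-free tissue is a setting of low stimulation.

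Reg1, Reg2, Reg3a, Reg3b, Reg3d and Reg3g follow each other on chromosome 6 with no other coding gene between them, from Reg3b at one end to Reg3g at the other, and Reg4 lies on chromosome 3. The bases just before the transcription start of Reg3b, Reg3g and Reg4 are shown because these members gave the clearest patterns below (RefSeq, build GRCm38.p6, 250 bases on the strand of the gene, 5′ to 3′). Capitals mark the letters TTCNNNGAA, the pattern read by STAT factors, which is its own reverse complement. The windows are chr6:78370635-78370884 on the plus strand for Reg3b, chr6:78468875-78469124 on the minus strand for Reg3g and chr3:98221906-98222155 on the plus strand for Reg4.
Reg3b: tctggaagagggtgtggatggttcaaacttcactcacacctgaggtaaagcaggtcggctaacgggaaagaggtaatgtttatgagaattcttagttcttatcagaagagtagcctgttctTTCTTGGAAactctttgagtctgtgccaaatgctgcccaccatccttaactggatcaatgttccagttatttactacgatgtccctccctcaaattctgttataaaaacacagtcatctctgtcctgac
Reg3g: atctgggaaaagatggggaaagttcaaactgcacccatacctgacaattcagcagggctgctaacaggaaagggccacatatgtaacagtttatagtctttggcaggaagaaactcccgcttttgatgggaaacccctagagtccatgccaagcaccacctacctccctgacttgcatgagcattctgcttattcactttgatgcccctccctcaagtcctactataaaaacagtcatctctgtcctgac
Reg4: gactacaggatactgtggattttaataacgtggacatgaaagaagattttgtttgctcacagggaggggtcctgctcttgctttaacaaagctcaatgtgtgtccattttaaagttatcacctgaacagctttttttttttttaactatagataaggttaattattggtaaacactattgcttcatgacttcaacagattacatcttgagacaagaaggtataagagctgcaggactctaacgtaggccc

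Reg3b and Reg3g were the most alike of the 21 pairs of these windows, with 68.4% identical positions in a global alignment, against 42.5% to 54.4% for the other 20 pairs. The STAT pattern stood once in the window of Reg3b, as TTCTTGGAA with its first base 129 bases before the start, and once in that of Reg3d, and in none of the other 5. Of 32851 promoter windows of this length, 7.02% held it. A TATA box (TATAAA, either strand) stood in the windows of Reg1, Reg2, Reg3b and Reg3g, with its first base 27 to 30 bases before the start in each, and in 12.4% of all windows. A match is a description of letters only, and a window without one says nothing about a factor. The 60-base probes themselves share little between members. The longest run shared by the probes of any 2 members was 8 bases and the highest identity was 57.8%, so no long stretch is common to them.

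Most arrays went against their labels in Card9 and some stood apart, and this touches every value below. Card9 itself had a normalized log2 signal of 8.71 to 9.24 in the arrays labelled GF Card9-/- at day 0 and of 2.30 to 2.33, not well above background, in those labelled GF WT. At day 7 it was 7.93 to 8.57 in the former and 2.38 to 2.41 in the latter, except 7.85 in GF WT replicate 1. It was thus well above background on all 11 arrays labelled as lacking the gene and on 1 of 10 labelled GF WT, so that 20 of 21 arrays went against their label. Were the labels exchanged, every signed difference below would turn, which was not tested. Whether these probes lie in the deleted stretch is not given in the sources used here. Every array is therefore called by its deposited label, and every direction is that of the labels. Pancreas acinar genes were high on a few arrays. All 18 genes of the acinar list were well above background in the day 0 array labelled GF Card9-/- replicate 7, with a summed level of 2622900 units, against 25687 to 86388 units on the other 12 arrays. At day 7 the sum was 1024040 units in GF Card9-/- replicate 6 and 64651 units in replicate 2.1, against 6527 to 23704 units on the other 6 arrays. The sum weighs bright genes most, and Cela1 was bright on every array (14.2 to 17.7 at day 0 and 11.9 to 14.4 at day 7). Taken gene by gene, GF Card9-/- replicate 4 of day 7 also differed from the rest of that day. There 12 of the 18 genes were well above background, against 3 to 9 on the remaining 5 arrays, and the chymotrypsinogen Ctrb1 read 7.80 (5.67 to 6.11 on those 5) and the trypsin Try4 6.49 (2.55 to 3.41). The day 0 array labelled GF WT replicate 6 differed from the other colon samples in some genes of the colon and small intestine lists. Hoxb13, a homeobox gene of the distal gut, read 9.45 there and 14.5 to 16.5 elsewhere on the log2 scale, and Aqp8, a water channel of colonocytes, read 9.56 against 15.5 to 17.1. Sis, the sucrase of the small intestinal brush border, read 12.7 against 5.44 to 8.22. Some other genes of these lists did not go this way. Car1, a carbonic anhydrase of the colon list, read 17.9 there, against 14.5 to 15.7 on the other arrays. Lct (2.56) and Rbp2 (8.47) of the enterocyte list lay within the range of the other arrays. The summed small intestinal enterocyte level of GF WT replicate 6 was 18870 units, against 2713 to 5358 units on the other day 0 arrays. GF Card9-/- replicate 3 at day 0 also held genes of the small intestine, at lower levels. All 11 enterocyte genes were well above background there (7 to 10 on the other arrays), with the apolipoprotein Apoa4 at 7.97, against 6.42 in GF WT replicate 6 and 2.53 to 3.48 elsewhere. The Paneth cell defensin Defa24 read 8.85, against 3.07 to 6.54, and the mean log2 signal of the Paneth cell list was 7.54, against 5.35 to 6.81. Lyz1 (11.3), Mmp7 (7.09) and Defa26 (2.52), also of the Paneth cell list, lay there within the range of the other arrays. The summed enterocyte and Paneth cell levels of GF Card9-/- replicate 3, 3661 and 3405 units, also lay within the range of the others.

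Reg3b, a bactericidal lectin, was at or near background on most arrays. At day 0 its log2 signal was 14.62 in GF WT replicate 6. In the other arrays labelled GF WT it was 2.52, 2.46, 3.29, 2.45 and 4.47, none of them well above background. In the arrays labelled GF Card9-/- replicates 1 to 7 it was 4.43, 2.45, 6.51, 5.60, 2.51, 2.46 and 5.39, of which replicates 3, 4 and 7 were well above background. A single array thus held nearly all of the Reg3b signal of day 0, and it is the array with the small intestinal genes. Among the rest, 3 of 7 arrays of the one label and 0 of 5 of the other passed background. The brightest of those 3, GF Card9-/- replicate 3, is the array with the highest Defa24 and with all enterocyte genes above background, and its part in the count was not tested. At day 7 the signal was 2.69, 5.69, 4.84 and 6.71 in GF WT replicates 1, 4, 5 and 6, with replicates 4 and 6 above background. It was 2.50, 7.42, 4.63 and 7.89 in GF Card9-/- replicates 2, 2.1, 4 and 6, with replicates 2.1 and 6 above background. The labels overlapped fully, and the brightest pair of arrays was the pair with the most pancreas enzyme signal. Whether that tissue contributed was not tested.

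Reg3g, the lectin that keeps bacteria away from the epithelium by binding Gram-positive cell walls, was measured on nearly every array. All 13 arrays of day 0 passed background. It read 6.87, 6.32, 7.02, 5.95, 8.03 and 11.91 in GF WT replicates 1 to 6 and 8.26, 6.30, 7.22, 8.28, 6.94, 6.19 and 7.98 in GF Card9-/- replicates 1 to 7. Replicate 6 of GF WT again stood highest, and without it both labels covered much the same span. At day 7 it read 7.13, 8.20, 3.85 and 7.64 in GF WT replicates 1, 4, 5 and 6, of which replicate 5 was not well above background. The arrays labelled GF Card9-/- replicates 2, 2.1, 4 and 6 read 6.33, 7.72, 6.64 and 7.04. All 4 lay between the lowest and the highest GF WT array.

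Reg3a and Reg3d, the other members of the Reg3 group, behaved differently from each other. Reg3a, a lectin of the same group, was above background on 1 array of all 21, the day 0 array GF WT replicate 6, where it read 8.77, while the other day 0 arrays read 2.38 to 2.47 and the day 7 arrays 2.66 to 3.77. Reg3d passed background on each of the 13 day 0 arrays and varied little, from 5.27 to 6.20 on 12 arrays, apart from 10.18 in GF Card9-/- replicate 7. Its second probe (A_51_P397414) was above background on that array alone, at 8.74, against 2.47 to 2.60 on the other 12. Both probes were thus high on the array with pancreas enzymes, and only the brighter one gave a signal elsewhere. At day 7 Reg3d read 4.19, 4.87, 3.88 and 5.37 in GF WT replicates 1, 4, 5 and 6 and 4.73, 5.94, 4.88 and 9.20 in GF Card9-/- replicates 2, 2.1, 4 and 6. Of the GF WT arrays only replicate 6 was well above background, and all 4 of the other label were. The value of 9.20 again belongs to the array with the most acinar signal.

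Reg1 and Reg2, the members known from the pancreas, were bright on a few arrays and dim elsewhere. Reg1 was well above background on 5 of the 21 arrays and Reg2 on 3 of those 5. At day 0 Reg1 read 14.58 in GF Card9-/- replicate 7, 7.32 in GF WT replicate 6 and 6.77 in GF Card9-/- replicate 3, and 2.43 to 3.67, not well above background, on the other 10 arrays. Reg2 was above background on 2 arrays of day 0, GF Card9-/- replicate 7 at 7.36 and GF WT replicate 6 at 6.11, and read 2.27 to 2.75 on the other 11. At day 7 Reg1 read 13.26 and 8.77 in GF Card9-/- replicates 6 and 2.1 and 2.68 and 2.69 in replicates 2 and 4. It read 2.71, 2.82, 2.67 and 2.85 in GF WT replicates 1, 4, 5 and 6. Reg2 read 8.40 in GF Card9-/- replicate 6 and 2.31 to 3.39 on the other 7 arrays, none of them above background. The arrays with high Reg1 at day 7 were those with high acinar genes. Cpa1, a carboxypeptidase of acinar cells, read 17.2 in replicate 6 and 12.9 in replicate 2.1, against 2.66 to 6.81 on the other 6 arrays, of which 6.81 was in replicate 4. At day 0 Cpa1 read 17.7 in GF Card9-/- replicate 7 but 3.14 in GF WT replicate 6 and 2.39 in GF Card9-/- replicate 3. Of the acinar list, 8 and 9 of 18 genes were well above background on those 2 arrays, against 7 to 12 on the 10 arrays without Reg1. One gene of the list, picked out after its values were seen, was above background on the same 3 arrays as Reg1. Ptf1a, a transcription factor of acinar cells, read 7.88 in GF Card9-/- replicate 3, 6.12 in GF WT replicate 6 and 6.10 in GF Card9-/- replicate 7, and 2.37 to 3.04, not well above background, on the other 10. Ctrl, a chymotrypsin-like protease, read 15.5 in GF Card9-/- replicate 7 and 7.78 in GF WT replicate 6, but 6.67 in GF Card9-/- replicate 3, within the 5.95 to 7.25 of the 10 arrays without Reg1. How much the acinar genes and the Reg1 and Reg2 signals depend on each other was not tested.

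**Figure D1:**
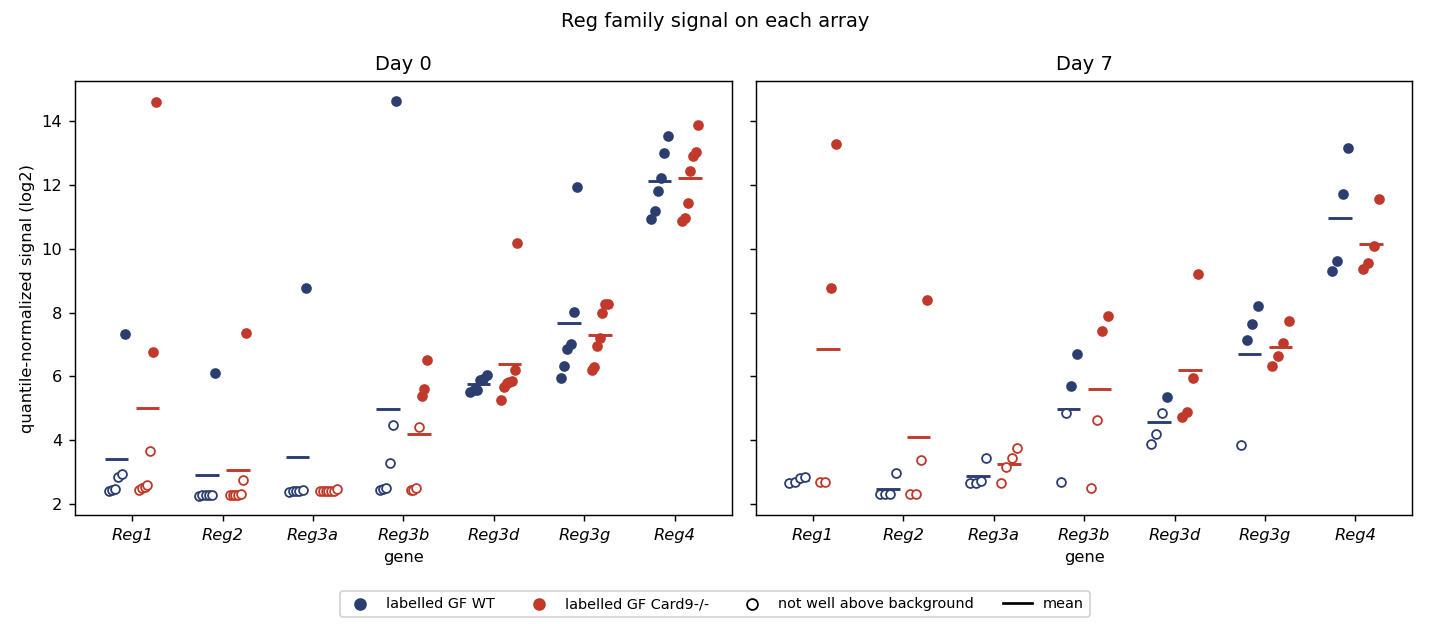
Quantile-normalized log2 signal (y axis) of the brightest probe of each Reg gene (x axis) on every array at day 0 and day 7. Blue points are arrays labelled GF WT, red points arrays labelled GF Card9-/-, open points are not well above background and bars are means. Reg3b and Reg1 show single high arrays (14.62 and 14.58 at day 0), while Reg4 is spread evenly between 10.87 and 13.86 at day 0.

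**Figure D2:**
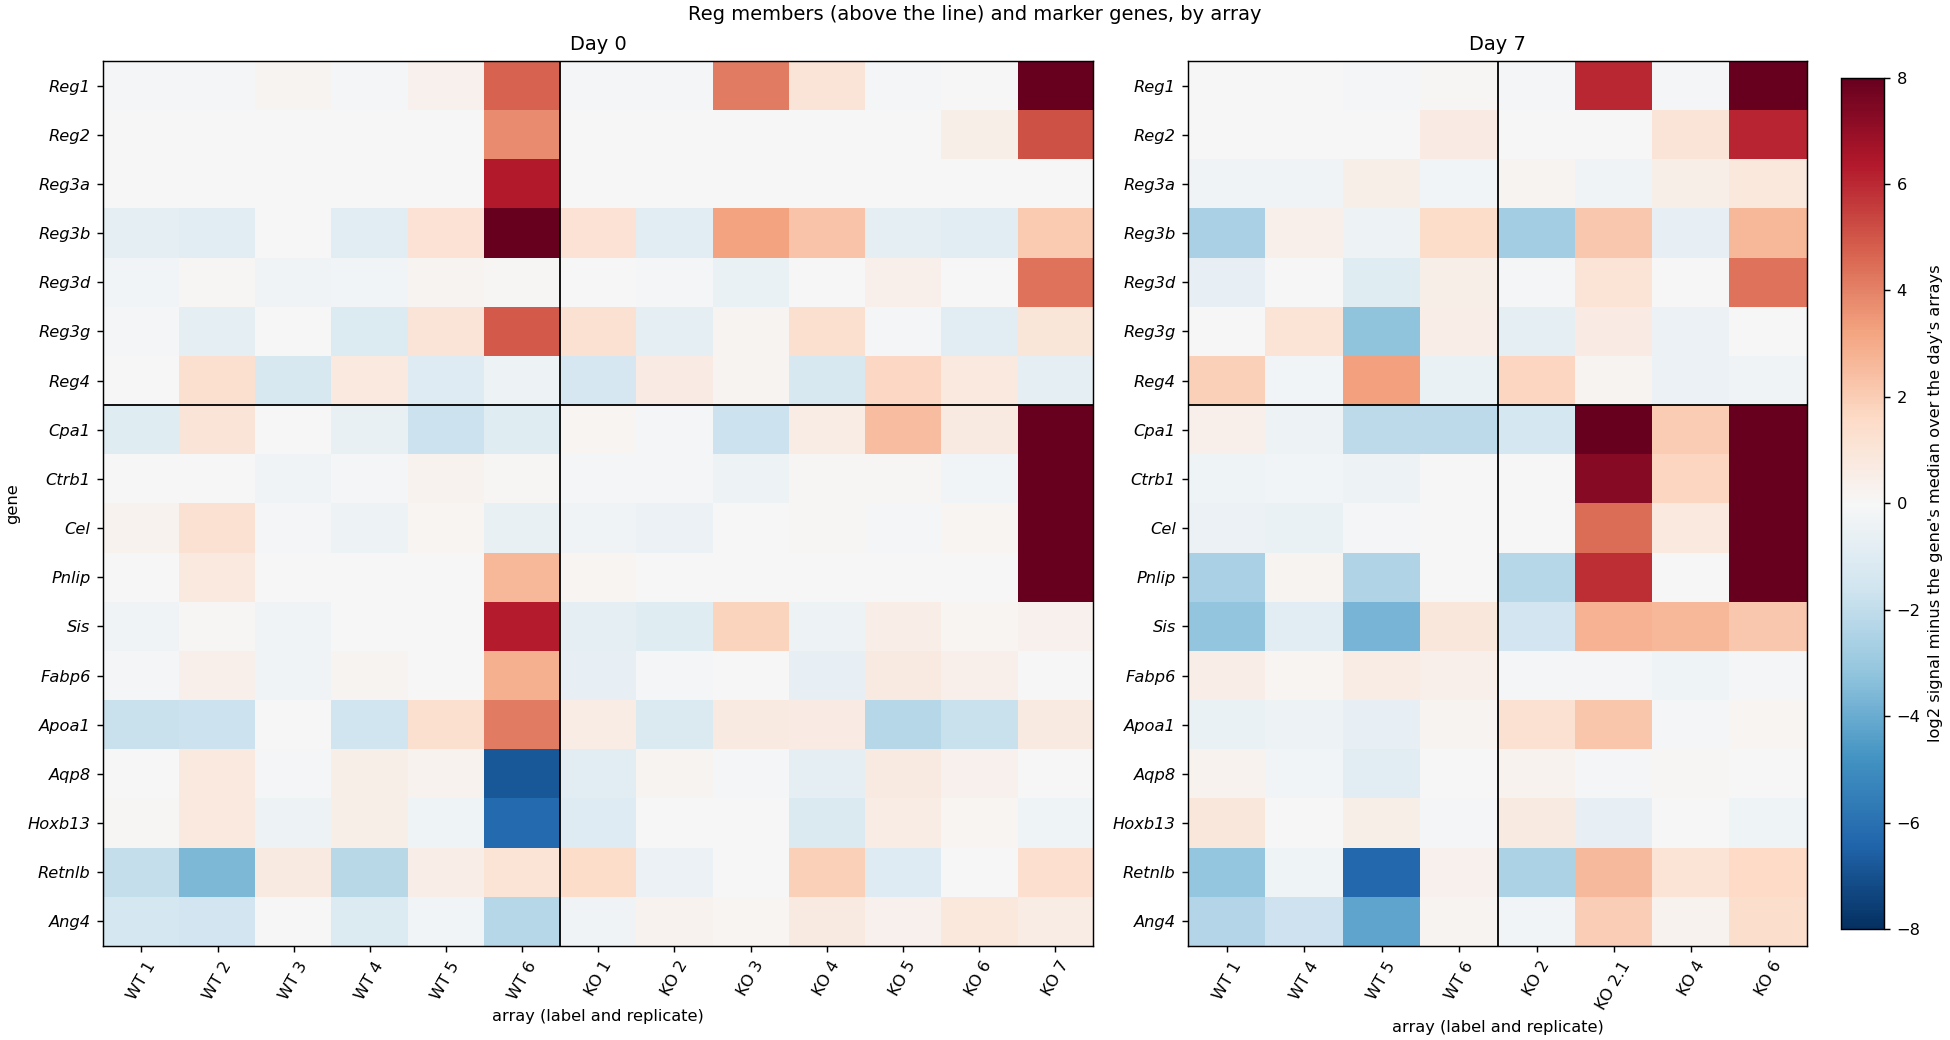
Log2 signal minus the median of the gene over the arrays of a day (color scale, cut at 8 in each direction), for the Reg genes above the line and marker genes below it, on every array (columns, by label and replicate). Reg1, Reg2 and Reg3d are high in the columns KO 7 at day 0 and KO 6 at day 7, where the acinar genes Cpa1, Ctrb1, Cel and Pnlip are highest. Reg1, Reg2, Reg3a, Reg3b and Reg3g are high in the day 0 column WT 6, where Sis, Fabp6 and Apoa1 are high and Aqp8 and Hoxb13 low. Not drawn are Car1 of the colon list, highest in WT 6 (17.9), and the enterocyte genes Lct (2.56) and Rbp2 (8.47), not raised there.

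Reg4, the member of colonic secretory cells, was well above background on all 21 arrays and had no single array far from the rest at day 0. It ran from 10.93 (replicate 3) to 13.52 (replicate 2) in the 6 arrays labelled GF WT, with a median of 12.02. In the 7 labelled GF Card9-/- it ran from 10.87 (replicate 1) to 13.86 (replicate 5), with a median of 12.43. Each label covered about the whole span. The GF WT array that was highest for Reg3b, Reg3g and Reg3a read 11.81 for Reg4, within the span of the others. At day 7 Reg4 read 11.72, 9.61, 13.16 and 9.30 in GF WT replicates 1, 4, 5 and 6, and 11.55, 10.08, 9.37 and 9.54 in GF Card9-/- replicates 2, 2.1, 4 and 6. The array without a Reg3g signal, GF WT replicate 5, was the highest for Reg4. Reg4 was probed at chromosome 3, 98037005 to 98040251 (build NCBI37), a span longer than the probe, so the probe crosses at least 1 intron.

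Next, the labels were compared within each day by limma on all probes that passed the detection filter, with Benjamini-Hochberg adjustment. At day 7, 6 of the 7 members were tested and 0 had an adjusted p under 0.05, where 0% of the 44643 probes tested did. At an unadjusted p under 0.05 the count was also 0 members and 1511 probes. At day 0, 6 members were tested and 0 had an adjusted p under 0.05, against 0.0253% of 47410 probes, and 0 members had an unadjusted p under 0.05, against 2769 probes. Reg1 at day 7 and Reg3a at day 0 did not pass the filter, which asks for detection in 60% of the arrays of a label. The values of the labels overlapped for every tested member at both days, while 2.13% of probes at day 7 and 0.458% at day 0 did not overlap. The median difference of the tested members, labelled GF Card9-/- minus labelled GF WT, was 0.51 at day 7 (5 of 6 above 0) and 0.12 at day 0 (4 of 6 above 0), and that of all probes tested was 0.0013 and 0.015 (50.4% and 57.0% above 0). The members' median rests on single arrays. At day 7 it was 0.19 without GF Card9-/- replicate 6, the array with the most acinar signal, 0.0029 without replicates 6 and 2.1 (3 of 6 above 0), and 1.05 without replicate 2. At day 0 it was −0.24 without GF Card9-/- replicate 7 and 0.74 without GF WT replicate 6.

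For Reg3b the log2 difference at day 7 was 0.63 (95% interval −2.59 to 3.84, adjusted p = 0.964 from limma, exact two-sided permutation p = 0.714). Without the 2 arrays with the most pancreas enzyme signal it was −1.42, and without GF WT replicate 1, whose Card9 signal differs from that of the other GF WT arrays, −0.14. At day 0 it was −0.78 (interval −4.76 to 3.20, adjusted p = 0.97, exact permutation p = 0.858) and without GF WT replicate 6 it was 1.15 (adjusted p = 0.756), so that array set the sign. Without GF Card9-/- replicate 3 it was −1.16. For Reg3g the difference was 0.23 at day 7 (interval −1.93 to 2.39, adjusted p = 0.991, exact permutation p = 0.943) and −0.72 without GF WT replicate 5. At day 0 it was −0.37 (interval −2.23 to 1.48, adjusted p = 0.968, exact permutation p = 0.791) and 0.47 without GF WT replicate 6. Neither lectin gene differed between the labels beyond the spread of the arrays, and the intervals also hold differences of over 2 on the log2 scale at day 7.

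The differences of the other members were no larger than their spread. Reg3d differed by 1.61 at day 7 (interval −0.69 to 3.91, adjusted p = 0.913, exact permutation p = 0.143) and by 0.61 without GF Card9-/- replicate 6. At day 0 it differed by 0.65 (interval −0.79 to 2.09, adjusted p = 0.912, exact permutation p = 0.581) and by 0.019 without GF Card9-/- replicate 7. Reg2 differed by 1.63 at day 7 (interval −1.45 to 4.71, adjusted p = 0.913, exact permutation p = 0.229) and by 0.20 without GF Card9-/- replicate 6. Its difference at day 0 was 0.15 (interval −1.85 to 2.16, adjusted p = 0.99, exact permutation p = 0.802), and −0.56 without GF Card9-/- replicate 7 and 0.79 without GF WT replicate 6. Reg1 differed by 1.61 at day 0 (interval −2.48 to 5.69, adjusted p = 0.916, exact permutation p = 0.579) and by 0.013 without GF Card9-/- replicate 7. At day 7 Reg1 was above background on 2 of 4 arrays labelled GF Card9-/- and on 0 of 4 labelled GF WT. With each GF WT value raised to the dimmest level above background of its array, the mean was at least 6.32-fold higher. Without that raising the mean difference was 4.09 (exact permutation p = 0.371). Both values rest on those 2 arrays, as the mean difference without them was −0.077. Reg3a differed by 0.39 at day 7 (interval −0.27 to 1.05, adjusted p = 0.913, exact permutation p = 0.257), with no array well above background (0 arrays). With single arrays left out the Reg3a difference ran from 0.22 to 0.59. Reg4 differed by −0.81 at day 7 (interval −3.00 to 1.38, adjusted p = 0.918, exact permutation p = 0.486), −0.078 without GF WT replicate 5, and by 0.094 at day 0 (interval −1.16 to 1.34, adjusted p = 0.99, exact permutation p = 0.88).

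**Figure D3:**
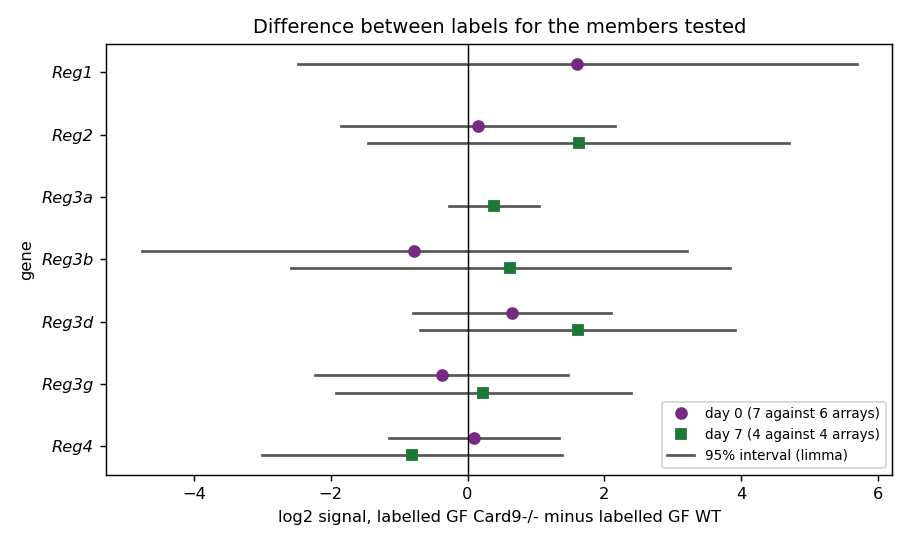
Log2 difference (x axis, arrays labelled GF Card9-/- minus arrays labelled GF WT) with its 95% interval from limma for the Reg members tested (y axis), at day 0 (circles, 7 against 6 arrays) and day 7 (squares, 4 against 4 arrays). Every interval includes 0, and those of Reg1 and Reg3b at day 0 are the widest.

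Slides held several arrays, and the differences also changed sign between them. At day 0 each of 4 slides held both labels, and Reg3b was higher in the arrays labelled GF Card9-/- on 3 of them (−12.1 to 2.88) and Reg3g on 2 (−5.35 to 1.79). Reg4 was higher on 2 of 4 (−1.06 to 1.62). At day 7 the 2 slides with both labels gave −1.31 and −0.47 for Reg3g and 0.46 and 2.25 for Reg4. Both of these run against the sign of the difference over all 8 arrays. Whether the difference between labels itself changed from day 0 to day 7 was tested on 23633 probes common to both designs. Of the 5 members tested, 0 had an adjusted p under 0.05, against 0% of all probes, and 0 at an unadjusted p under 0.05, against 1688 probes. The change, day 7 minus day 0, was 1.40 for Reg3b (95% interval −4.12 to 6.93, adjusted p = 0.941 from limma) and 0.60 for Reg3g (interval −2.20 to 3.40, adjusted p = 0.95). It was 1.47 for Reg2, 0.96 for Reg3d and −0.91 for Reg4 (adjusted p = 0.891, 0.903 and 0.898 from limma). The change of Reg2 was 0.042 without GF Card9-/- replicate 6 of day 7 and 0.84 without GF WT replicate 6 of day 0, and that of Reg4 was −0.17 without GF WT replicate 5 of day 7.

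The members differed in which arrays were high, and a single pair was related across arrays, inversely. At day 0 the 3 members above background on at least 6 arrays were Reg3d, Reg3g and Reg4, which gave 3 pairs. GF WT replicate 6 for Reg3g and GF Card9-/- replicate 7 for Reg3d lay so far from the rest that the arrays formed separate clusters, so correlations were taken without them. Over the remaining 12 arrays Reg3g and Reg4 were inversely related (Pearson r = −0.80, permutation p = 0.0035, adjusted p = 0.0104 over 3 pairs; Spearman rho = −0.74, permutation p = 0.008, adjusted p = 0.0239). The relation was −0.84 with the label means taken out and −0.69 without the 2 arrays farthest from the median of Reg3g, GF Card9-/- replicates 1 and 4. Within the first of 2 scan sessions r was −0.95 (n = 6, exact permutation p = 0.0139) and within the second −0.73 (n = 6, exact permutation p = 0.144). The other pairs gave no clear relation. Reg3d and Reg3g had r = 0.23 over 11 arrays (permutation p = 0.494, adjusted p = 0.697; rho = 0.20, permutation p = 0.558) and 0.50 without the 2 arrays farthest from the median of Reg3d. Reg3d and Reg4 had r = 0.13 over 12 arrays (permutation p = 0.697, adjusted p = 0.697; rho = 0.18, permutation p = 0.573) and −0.16 without the farthest 2.

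At day 7 the only pair was Reg3g and Reg4. Here GF WT replicate 5 stood apart, with the lowest Reg3g and the highest Reg4. Over the other 7 arrays r was −0.43 (exact permutation p = 0.324) and rho −0.071 (exact permutation p = 0.906), and r was −0.56 with the label means taken out. With single arrays left out it ran from −0.66 to −0.10, and over the 5 arrays left without the 2 farthest from the median of Reg3g it was 0.023, so a relation was not shown within these arrays. With normexp background correction, with the authors' table, or with dim values raised, replicate 5 no longer stood apart, and r was −0.75, −0.78 and −0.76 (exact permutation p = 0.0279, 0.0222 and 0.0246), over all 8 arrays. Those settings change both the signal scale and the arrays counted, and which of them moved the value was not tested.

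**Figure D4:**
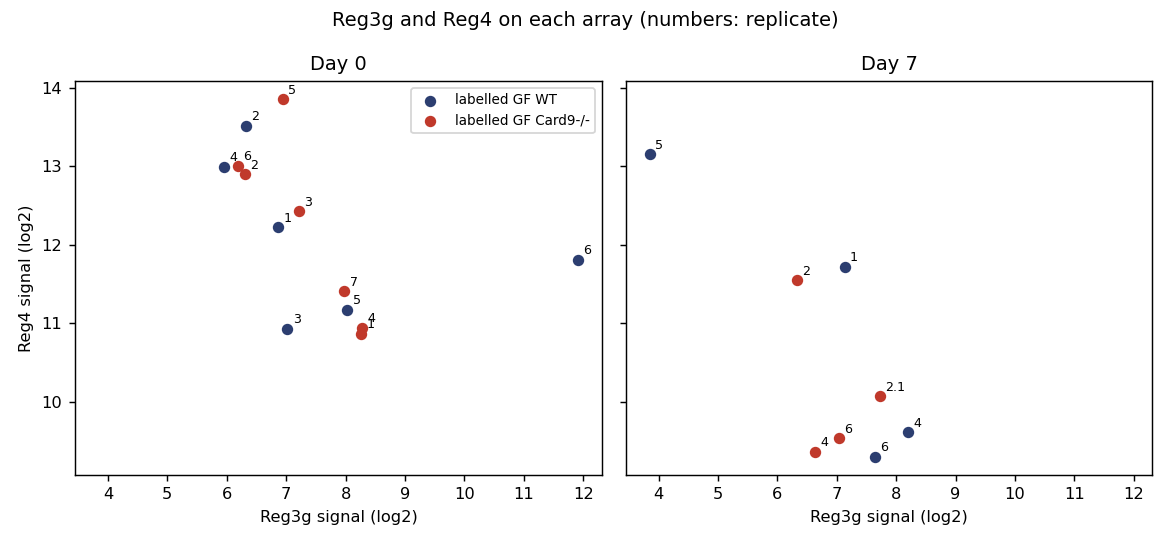
Log2 signal of Reg3g (x axis) against Reg4 (y axis), 1 point per array, blue for GF WT and red for GF Card9-/- labels, with the replicate number beside each point. At day 0 the points other than GF WT replicate 6 run downward (r = −0.80), and at day 7 GF WT replicate 5 lies at the upper left (3.85 and 13.16).

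Genes of colon identity were set beside this pair at day 0, after the values were seen. The 8 genes of that list were tested against Reg3g and Reg4 over the same 12 arrays, which gave 16 relations. With Reg4, 3 of the 8 had a positive relation past the threshold (adjusted p under 0.05) and 1 a negative one, and with Reg3g 1 was positive and 3 were negative. Among 17534 genes above background on at least 50% of the arrays, 10.2% had an r with Reg4 of the size of these or more (0.65 in either direction), and 10.6% one with Reg3g (0.64). Hoxb13 followed Reg4 most closely of the list (r = 0.91, permutation p = 3e-05, adjusted p = 0.00048; rho = 0.93, permutation p = 6e-05) and ran against Reg3g (r = −0.82, permutation p = 0.0011, adjusted p = 0.0043; rho = −0.77). Without the 2 arrays farthest from the median of Reg4, its r with Reg4 was 0.89, and it was 0.90 and 0.93 within the first and the second scan session. Aqp8 had r = 0.83 with Reg4 (permutation p = 0.00054, adjusted p = 0.0029; rho = 0.88) and −0.71 with Reg3g (permutation adjusted p = 0.0254), which was −0.44 without the 2 arrays farthest from the median of Reg3g. Car4, a carbonic anhydrase, had r = 0.65 and −0.64 (permutation adjusted p = 0.036 and 0.0404). Its relation with Reg3g was not past the threshold by rank (rho = −0.60, permutation adjusted p = 0.0743) and was −0.20 without the farthest 2, and within the first scan session r was −0.22 with Reg4 and 0.056 with Reg3g. Car1 ran the other way, with r = −0.81 for Reg4 (permutation p = 0.0024, adjusted p = 0.0078; rho = −0.67) and 0.90 for Reg3g (permutation adjusted p = 0.002). Slc26a3, Hoxd12 and Hoxd13 were not past the threshold with either by Pearson r (−0.61 to 0.49), though Hoxd12, well above background on 3 of 13 arrays, was with Reg3g by rank (rho = −0.66, permutation adjusted p = 0.0458). Retnlb, a bactericidal goblet cell protein, was picked out for its pattern and is given with no test, at an r of −0.79 with Reg4 and 0.78 with Reg3g. The part of these genes in the relation between Reg3g and Reg4 was not tested.

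The 5 genes most like Reg3b, Reg3g and Reg4 were taken by Pearson r over all arrays of a day, among 15520 genes at day 7 and 17538 at day 0, and are given as a description. At day 0 those nearest to Reg3g were Sqor (r = 0.98), Car1, a carbonic anhydrase of colonocytes (0.97), Slc35d1 (0.97), Gsdme (0.97) and Myl7 (0.97), and without GF WT replicate 6 these were still 0.89 to 0.91. For Reg3b they were Chgb, a granin of endocrine cells (0.96), Cyp4b1 (0.96), Acaa2 (0.95), Suox (0.95) and Slc10a2, the bile acid transporter of the ileum (0.95), but without that array only 0.71 to 0.80. Reg4 was accompanied by Fam126a (0.94), Ybx2 (0.94), Abi3 (0.94), Fxyd4, a regulator of the sodium pump (0.93), and St8sia5 (0.93). At day 7 the nearest to Reg4 were Cdc42ep5 (0.98), Hnrnpul1 (0.98), Myo6 (0.98), Scnn1b, a subunit of the epithelial sodium channel (0.97), and Lrmp (0.97). For Reg3g they were Smyd1, Stn1, Vill, Erg28 and 2810408A11Rik (0.97 to 0.99), and for Reg3b 5730416F02Rik, Cep128, Ncapg2, Nucb2 and Slc35a1 (0.94 to 0.96). The values at day 7 rest on 8 arrays.

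Turning to the signals upstream, Il22 itself passed background on none of the 21 arrays (0 arrays), at 2.46 to 3.62 at day 7 and 2.39 to 4.47 at day 0. Of the 18 genes of the IL-22 and IL-17 axis, 17 were tested at day 7 and 15 at day 0, and 0 were called in either direction at each day. Their median log2 difference was 0.082 at day 7 and −0.092 at day 0. The receptor chains and the signal transducer were bright throughout. Il10rb, shared by the receptors of IL-22 and IL-10, read 10.8 to 11.4 at day 7 and 13.3 to 13.7 at day 0, and Stat3 read 12.5 to 13.3 and 12.6 to 13.2. Il22ra1, the specific chain of the IL-22 receptor, read 8.80 to 9.89 and 9.17 to 10.2. For Il10rb and Il22ra1 the brightest probe was not the same at both days, so these ranges are not compared between days. Extl3, a proposed receptor of Reg proteins, read 12.0 to 12.5 at day 7 and 12.4 to 12.9 at day 0, with differences of −0.0079 and 0.079.

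Other antimicrobial genes of the epithelium were compared as a group of 25. At day 7, 23 were tested and 0 called (19 higher in the arrays labelled GF Card9-/-, median 0.32, where 50.4% of all probes were higher), and at day 0, 24 were tested and 0 called (13 higher, median 0.023, where 57.0% of all probes were). The brightest was Zg16, a lectin of goblet cells, at 18.8 to 18.9 on every array. Quantile normalization gives equal ranks equal values, and Zg16 read 18.761 on all 8 arrays of day 7. Its evenness there is set by the method and does not show equal amounts. Dmbt1 read 17.2 to 18.2 at day 7 and 18.0 to 18.4 at day 0, Saa1, an acute phase protein, 17.4 to 18.1 and 17.4 to 18.5, and Lypd8, which keeps flagellated bacteria from the epithelium, 15.6 to 17.2 and 18.6 to 18.8. Lypd8 was read by a different probe at each day, so its ranges are not compared between days. Retnlb gave the largest difference at day 7, 3.02 (adjusted p = 0.913 from limma), and Ang4, a ribonuclease of Paneth and goblet cells, the lowest adjusted p at day 0 (difference 1.46, adjusted p = 0.265). Other epithelial lists leaned the same way at day 7, with 5 of 6 epithelial genes higher (median 0.23). Of the goblet and deep crypt secretory genes 7 of 8 were higher (0.31), and of the enteroendocrine genes 8 of 8 (0.37). The lean was not particular to epithelium. Higher too were 6 of 6 neutrophil genes (0.38), 3 of 3 B cell genes (0.32) and 3 of 4 adipocyte genes. Smooth muscle genes went the other way, with 0 of 4 higher (−0.47). S100a8 and S100a9 of the neutrophil list are also among the 25 antimicrobial genes. The part of these lists in the values of the Reg and antimicrobial genes was not tested. In the lists for pancreas, small intestine and the other cell types of the gut, 0 genes were called at either day, although the acinar list had medians of 4.18 at day 7 and 1.47 at day 0, set by the arrays named above.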

How the data were processed

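RNA of whole colon was measured on single-color Agilent arrays, whose spots were read with Agilent Feature Extraction 10.7.3.1 per the labels. The deposited intensity values are linear and background-subtracted, and a deposited p-value compares every spot with its background. The authors also deposited log2 values per day (column medians 6.21 at day 7 and 6.62 to 6.63 at day 0). Their rank order follows the signal before background subtraction (Spearman rho at least 0.996), so they appear not to be background-subtracted, and genes were not centred.

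Processed signals were log2-transformed and quantile normalized within a day. Control and outlier spots were removed and the spots of a probe averaged. A probe was tested when detected (p under 0.05) on 60% or more of the arrays of a label. Between 40.7% and 55.8% of probes at day 7 and 52.4% and 63.3% at day 0 carried the software's flag for a signal well above background, and 0 spots were saturated. Precision is limited by how many arrays there are. The dimmest probe well above background on an array had a log2 signal of 3.58 to 5.12 at day 7 and 3.97 to 5.43 at day 0. Probe positions are on NCBI37. Probes were named through RefSeq where possible, which gave all Reg members. Labels were compared with limma 3.58.1 (lmFit and eBayes) in R 4.3.3, with Benjamini-Hochberg adjustment over all probes tested and exact permutation of the labels for single genes. A joint fit of the 4 groups compared the days. Correlations were tested by all pairings under 10 arrays and by 100000 random pairings otherwise. Nothing says whether same-label arrays came from separate cages or litters, so p-values measure the spread between these samples. For replicates 2 and 2.1 labelled GF Card9-/- at day 7, the SD of the log2 difference was 0.852 (0.907 as the median of other same-label pairs), and they counted as 2 samples.

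The genes named are Card9, the 7 members by their brightest probe, genes of the lists, and the 5 genes outside the family most correlated with Reg3b, Reg3g and Reg4. The planned rule for the lists was members past the threshold or else up to 4 of the highest signal. It was not kept throughout, and other list genes were named for their role or after their values were seen. The members and lists were chosen with earlier results of these data known. Alternatives were the 75th percentile, normexp (offset 50), the authors' table, raised dim values, other filters, means over probes, slide and replicate blocks, and leaving out each array. Leaving out 2 pairs of arrays was chosen after seeing the data. Scripts were tested on simulated data. The values of 1 gene of the colon identity list are not reported here.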

Additional observations from a re-analysis of the deposited data

Results flagged for a closer look

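For each member and each label at each day, the array farthest out was compared with the rest of its group, by its gap to the nearest array over the range of the group. Of 28 groups, 11 held an array that stood apart at the 95% level, where chance gives about 1 in 20 for independent, normally distributed groups. These groups share arrays and many sit near background, so the count is a description only. GF WT day 0 replicate 6 stood above its group for Reg1 (log2 signal 7.32), Reg2 (6.11), Reg3a (8.77), Reg3b (14.62) and Reg3g (11.91). GF Card9-/- day 0 replicate 7 stood above its group for Reg1 (14.58), Reg2 (7.36) and Reg3d (10.18). The remaining 3 were below background on every array of their group, namely Reg3a in GF Card9-/- day 0 replicate 5 (2.47), and at day 7 Reg2 in GF WT replicate 6 (2.98) and Reg3a in GF WT replicate 5 (3.45).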

How the results depend on the processing

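No Reg member was past the threshold (0 called) at either day or between the days under any alternative that was run, and the lowest adjusted p of a member was 0.675. Signs were less stable. The Reg3g difference at day 7 was −0.066 with normexp, −0.090 with dim values raised and −1.08 with the replicate block, and ran from −0.72 to 0.73 with single arrays left out (−0.036 without GF Card9-/- replicate 2.1). With the replicate block the Reg2 difference at day 0 was −0.56, and with slide as a block that of Reg4 at day 0 was −0.020. Without the 2 day 7 arrays with the most pancreas enzyme signal, Reg3b and Reg3g at day 7 differed by −1.42 and −0.22, the mean Reg1 difference was −0.077, and the change between days was −0.42 for Reg3d and −0.64 for Reg3b. Without GF Card9-/- replicate 7 and GF WT replicate 6 at day 0, Reg3b and Reg3g differed there by 0.95 and 0.36, and their change between days was −0.33 and −0.13. With single arrays left out, Reg3b ran from −0.14 to 1.66 at day 7 and from −1.28 to 1.15 at day 0, and Reg3g from −0.72 to 0.47, Reg2 from −0.56 to 0.79 and Reg4 from −0.18 to 0.38 at day 0. The change between days then ran from −0.53 to 2.44 for Reg3b, from −0.35 to 1.10 for Reg3g, from −0.045 to 1.59 for Reg3d, from 0.042 to 2.19 for Reg2 and from −1.46 to −0.17 for Reg4. The inverse relation of Reg3g and Reg4 at day 0 was past the threshold under every alternative (r from −0.88 to −0.76). At day 7 it was past it (1 pair) with normexp, the authors' table and dim values raised, each over 8 arrays rather than 7. Reg3d against Reg3g was −0.017 with the 75th percentile, and Reg3d against Reg4 was −0.095 with slide means removed and from −0.20 to 0.26 with single arrays left out. The cause of these changes was not tested.

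Same-numbered arrays of the labels did not pair throughout. Their deviations from the group means correlated at −0.022 to 0.37 at day 0 and at 0.029 and 0.11 at day 7, and the replicate block changed no call. The same-numbered GF WT array was the closest one for day 0 replicates 1 and 5 and day 7 replicate 4, and not for the other numbers. With 4 arrays a label the intervals of the 6 members tested at day 7 hold both signs. Dim members (Reg1, Reg2, Reg3a and most Reg3b values) have only an upper bound on most arrays, so their differences are those of a few arrays.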
